A study of Mus musculus with 15 samples.

Results

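The DEAD and DEAH box RNA helicases are the genes of the table whose symbol is Ddx or Dhx followed by a number, with pseudogenes left out. The rule found 54 of 55359 genes. Of these, 37 are Ddx genes and 16 are Dhx genes, and 1 match, Dhx58os, is named as an antisense transcript and holds no coding sequence in the annotation used here. The libraries come from mouse hematopoietic progenitors of the fetal liver, immortalized with Hoxb8 and grown with β-estradiol, in a heterozygous line (Ddx41+/-) and a line with both copies (Ddx41+/+). All 15 were infected with a GFP retrovirus for 2 days and sorted, in 5 groups of 3: the heterozygous line with R525H DDX41, G173R DDX41, wild-type DDX41 or empty vector, and the wild-type line with empty vector. R525H and G173R are substitutions found in patients with germline DDX41 mutation and myeloid malignancy. The question put to these genes was whether any helicase is higher where Ddx41 is halved.

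The labels name no more than 1 line of each genotype, so genotype and line cannot be told apart. Whether the 3 samples of a group were grown apart is not stated, so the spread behind the p-values may be technical. The names of 12 deposited files carry another group's code than the sample title, and groups follow the titles. The libraries that enter the comparison of all 12 heterozygous with the 3 wild-type ones do not depend on which vector a heterozygous library carried. Its SE, intervals and p-values do, since the fit takes the spread within the labelled groups. Its fold changes hold the effects of the vectors too. The sources used here do not say whether vector DDX41 transcripts would be counted as mouse Ddx41, so Ddx41 values in the vector groups may hold either or both. Total DDX41 in the groups with a DDX41 vector is therefore not known and need not be halved. Results over all 12 heterozygous libraries include those groups, and only the comparison with empty vector is free of added DDX41.

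RNA helicases of this superfamily bind RNA and use ATP to unwind short duplexes, to clamp onto RNA or to strip proteins from it. Their names come from a short stretch of the protein, the box, which takes part in ATP binding and hydrolysis. Most act at one step of the life of an RNA: splicing, the building of ribosomes, export, translation, decay, or the recognition of viral RNA. DDX41 is found in the spliceosome and has also been described as a sensor of nucleic acids, and its germline mutation predisposes people to myeloid neoplasms.

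The coding sequences around the box are shown for the genes on which the results turn: Ddx41 itself, the helicases with the lowest adjusted p after it, the closest pair of copies, and a DEAH member for contrast. Each run is 60 bases of coding strand in the 5′ to 3′ direction, read from GENCODE M21 transcripts on GRCm38. Capitals mark the 4 codons of the box, aspartate, glutamate, alanine and aspartate in DEAD or histidine in DEAH.
Ddx41 (chromosome 13): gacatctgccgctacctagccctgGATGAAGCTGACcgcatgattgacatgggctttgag
Ddx5 (chromosome 11): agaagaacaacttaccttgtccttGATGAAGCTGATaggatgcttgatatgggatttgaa
Ddx59 (chromosome 1): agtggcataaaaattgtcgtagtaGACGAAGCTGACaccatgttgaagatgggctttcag
Ddx19a (chromosome 8): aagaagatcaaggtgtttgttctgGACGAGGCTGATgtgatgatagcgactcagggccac
Ddx19b (chromosome 8): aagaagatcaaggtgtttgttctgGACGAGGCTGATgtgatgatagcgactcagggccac
Dhx40 (chromosome 11): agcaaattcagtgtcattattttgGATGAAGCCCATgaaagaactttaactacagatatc
Ddx19a and Ddx19b carry the same 60 bases here, so a read from this stretch alone could not tell them apart.

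In Ddx41 the box begins at codon 344 of 622. Of the 53 members with a coding sequence, 28 hold DEAD within 400 codons after the nucleotide-binding motif, and 9 hold DEAH. All 28 are among the 37 Ddx genes. The 9 are 8 of the 16 Dhx genes and Ddx11. The same search finds DEAD in 0.279% and DEAH in 0.149% of all 21526 genes with a coding sequence. The other 16 members, Ddx39a, Ddx21 and Ddx58 among them, hold neither spelling in that window.

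Levels are given first in TPM, the length-scaled transcript measure in the authors' files, which allows one gene to be set beside another. Over the 15 libraries, 6 members averaged 100 TPM or more, 34 lay between 10 and 100, 9 between 1 and 10, and 5 under 1. Ddx5, a nuclear helicase that takes part in transcription and microRNA processing, was highest with a mean of 333 TPM and a range of 295 to 427. It was followed by Ddx39a, an mRNA export factor, at 200 TPM, Ddx3x, which acts in translation initiation, at 187, and Ddx39b, which serves splicing and export, at 140. Dhx15, which takes spliceosomes apart, averaged 125 TPM, and Ddx21, a nucleolar helicase of ribosome production, 118. With Ddx1 (78.1 TPM), part of the tRNA ligase complex, and Dhx9 (67.4 TPM), a nuclear helicase of structured RNA, these 8 genes held 53.3% of the members' summed TPM. The median of the mean levels was 30.8 TPM for the Ddx genes and 16.9 TPM for the Dhx genes.

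**Figure D1:**
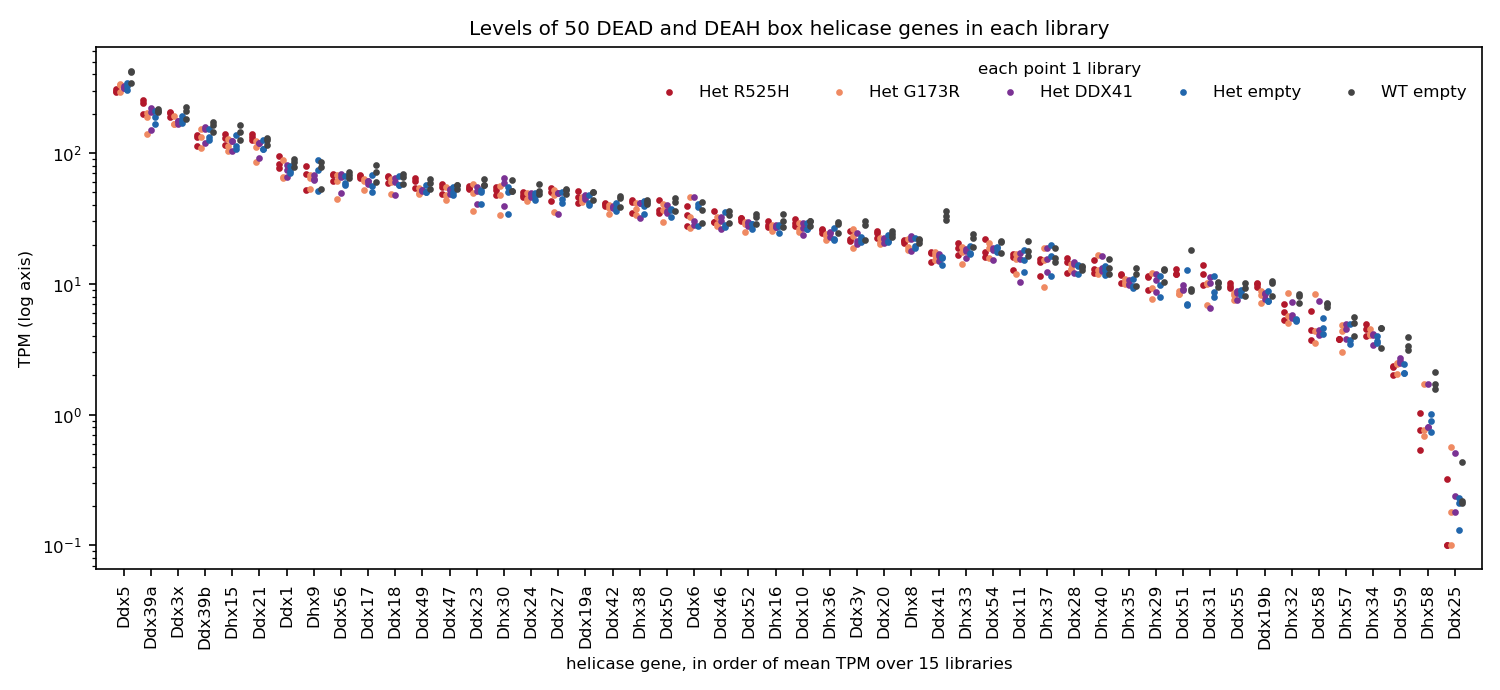
TPM of each of the 50 tested helicase genes on a log axis, with a point for each library coloured by group. Genes are ordered by mean TPM over the 15 libraries. Ddx5 ranks highest with a mean of 333 TPM and Ddx41 lies at rank 31 with a mean of 19.4 TPM.

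Ddx41 itself is a helicase of middling level. In the wild-type line it averaged 33.2 ± 2.53 TPM (SD, n = 3) and ranked 23, between Ddx6 at 36 ± 6.42 and Ddx46 at 33 ± 3.6. In the heterozygous line with empty vector it averaged 15.3 ± 1.11 TPM and ranked 34, between Dhx37 at 15.9 ± 4.15 and Ddx11 at 15.2 ± 2.95. Each neighbour differed from it by less than the neighbour's own SD in both lines, though Ddx6 differed by more than the SD of Ddx41. The highest member, Ddx5, stood 17.1-fold above Ddx41 in mean TPM over all libraries.

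The germline helicases were nearly silent. Ddx43 had no count in any library, and Ddx4, the germ cell marker known as vasa, had 7 counts over all 15. Ddx60, an interferon-induced gene, had 10 counts and Dhx58os 19, and these 4 genes did not pass the filter on low counts. The other 50 members were tested among 14548 genes. Ddx25, the only germline member tested, averaged 0.248 TPM.

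The members as a group took a small and even share of the libraries. They held 0.793% ± 0.0106 of the counts in the R525H group, 0.756% ± 0.0495 in the G173R group, 0.765% ± 0.0449 in the DDX41 group, 0.777% ± 0.0119 in heterozygous cells with empty vector and 0.795% ± 0.0072 in wild-type cells (SD, n = 3 each). The lowest shares were those of the third G173R library, 0.699%, and the third DDX41 library, 0.714%.

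Totals ran from 22104066 to 49145873 counts per library, and the labelled cell type was seen in the progenitor markers Ptprc, Kit, Flt3, Cd34, Myb and Spi1. In CPM, the counts divided by TMM-scaled library totals, the 6 summed to 3051 to 3385 in heterozygous cells with empty vector and 3238 to 3618 in wild-type cells. Ptprc was higher in the heterozygous cells, 292 against 180 CPM in wild-type cells, and Flt3 lower, 233 against 366. Of 6 mast cell and basophil markers, edgeR called 4 lower with empty vector, where it called 1.75% of all genes lower. These were Ms4a2, Cpa3, Cma1 and Prss34, while Gata2 at 0.15 and Mcpt8 at 0.19 on the log2 scale were not called. The 6 mast cell and basophil markers summed to 65.6 to 83.6 CPM in heterozygous cells with empty vector and 96.9 to 154 CPM in wild-type cells. The same 4 were also called lower over all 12 heterozygous libraries, where 4.21% of all genes were. The 7 erythroid markers summed to at most 4.35 CPM in any library of these 2 groups, and the 3 stromal markers were at 0. The hepatocyte markers Alb, Apoa1 and Ttr were at 0, and Afp, the fetal liver marker, had 0.288 to 1.18 CPM in heterozygous cells with empty vector and 0.0277 to 0.286 in wild-type cells. Its log2 fold change was 2.05 (SE 1.03, edgeR adjusted p = 0.511), and with the titles' numbers as a block it was called higher with empty vector (2.08, adjusted p = 0.0232) and over all 12 heterozygous libraries (1.97, adjusted p = 0.008). Under the same block 3 of the 4 erythroid markers tested were called lower over all 12, where 9.46% of all genes were. The part of these cell states in the helicase values was not tested, and in bulk RNA fewer cells of a type and less RNA per cell cannot be told apart.

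Ddx41 was lower in every heterozygous library than in every wild-type one. The CPM of libraries 1, 2 and 3 were 32.7, 34.6 and 29.1 with R525H, 35.2, 36.9 and 27.8 with G173R, 34.5, 35.3 and 29.5 with DDX41 and 29.4, 33 and 28.7 with empty vector, against 58.8, 63.4 and 55.6 in wild-type cells. The highest heterozygous library, at 36.9 CPM, lay well under the lowest wild-type one, at 55.6. Heterozygous cells with empty vector held 51.2% of the wild-type CPM and 46% of its TPM. The log2 fold change was -0.97 (SE 0.11, 95% interval -1.21 to -0.72, edgeR adjusted p = 0.000138). Over all 12 heterozygous libraries it was -0.88 (SE 0.08, interval -1.06 to -0.70, edgeR adjusted p = 1.01e-05). Every count of Ddx41 was whole, so none was shared out between genes by the estimation step.

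In the fit by group alone, no other helicase passed the test when the lines were compared. Of the 50 members tested, Ddx41 alone was called at an adjusted p under 0.05 between heterozygous and wild-type cells with empty vector, where edgeR called 3.66% of all genes (1.9% higher, 1.75% lower). Over all 12 heterozygous libraries Ddx41 was again the 1 member called of 50, where 7.67% of all genes were (3.46% higher, 4.21% lower). At an unadjusted p under 0.05, 3 members against 11.6% of all genes passed in the first comparison and 6 members against 19.2% in the second. Both comparisons use the same wild-type and empty-vector libraries and are not independent. With the titles' numbers as a block, 8 of 50 members were called over all 12 heterozygous libraries, where 17.5% of all genes were.

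No label says what the numbers 1 to 3 in the titles pair. They were taken to pair the libraries of the lines because libraries with the same number deviated together. With that assumed pairing held as a block more genes were called in general. The share of all genes called was 17.5% over all 12 heterozygous libraries, and 8 of 50 members were among them. Higher in the heterozygous libraries under the block, where 7.99% of all genes were, were Ddx19a by 0.16 on the log2 scale (adjusted p = 0.022), Ddx28 by 0.21 (adjusted p = 0.0116) and Dhx40 by 0.17 (adjusted p = 0.0178). Lower, where 9.46% of all genes were, were Ddx41, Ddx5 at -0.12 (adjusted p = 0.0467), Ddx59 at -0.38 (adjusted p = 0.02), Dhx32 at -0.25 (adjusted p = 0.0243) and Dhx58 at -0.70 (adjusted p = 0.0181), all by edgeR. With empty vector only, the block called Ddx41 and Dhx32 (-0.33, adjusted p = 0.0337), 2 of 50 members, both lower, where it called 9.29% of all genes (4.54% higher, 4.75% lower). Dhx32 and Dhx40 fall outside the rule by which genes were named and were added after their values were seen, as were others such as Ddx6 and Ddx31.

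The 3 helicases called higher under the block differed little in level, and in TPM Ddx19a and Dhx40 were not higher. Ddx19a, an mRNA export helicase of the nuclear pore, had 121, 117 and 106 CPM with R525H, 113, 121 and 104 with G173R, 121, 119 and 109 with DDX41, 115, 113 and 109 with empty vector, and 98.1, 106 and 102 in wild-type cells. The heterozygous libraries with empty vector were all above the wild-type ones, and over all 12 the groups overlapped. Ddx28, a helicase of the mitochondrial ribosome, had 29.9, 33.8 and 28.9 CPM in heterozygous cells with empty vector and 25.9, 29.3 and 26.4 in wild-type cells, with overlap. Dhx40 had 48.3, 50.6 and 56.5 CPM in heterozygous cells with empty vector and 45.5, 48.2 and 52.2 in wild-type cells, also with overlap. On the TPM scale the median of all tested genes was 0.20 lower on the log2 scale in the 12 heterozygous libraries (-0.20), against -0.01 in the fitted values. In TPM, Ddx19a averaged 45 ± 3.13 in the 12 heterozygous libraries and 48.1 ± 3.6 in wild-type cells (SD, n = 12 and 3). Dhx40 averaged 13.5 ± 1.66 TPM in the heterozygous libraries and 13.6 ± 1.85 in wild-type cells. Ddx28 averaged 13.6 ± 1.18 TPM in the heterozygous libraries and 13.3 ± 0.528 in wild-type cells. Relative to the median gene on that scale the log2 differences were 0.10, 0.18 and 0.22 for Ddx19a, Dhx40 and Ddx28.

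How large a rise could have been missed in the fit by group alone is given by its intervals. For 49 members without Ddx41, the upper 95% bound of the log2 fold change in heterozygous against wild-type cells with empty vector lay below a 1.5-fold rise in 47, all but Ddx25 and Ddx6; with the block the bound of Ddx6 was lower, at 0.34 on the log2 scale. It lay below a 1.2-fold rise in 23. With all 12 heterozygous libraries the bound lay below 1.5-fold in 48, all but Ddx25, and below 1.2-fold in 29. Smaller rises are within the intervals of many members. These bounds are relative to the median gene, as are all fitted fold changes here.

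**Figure D2:**
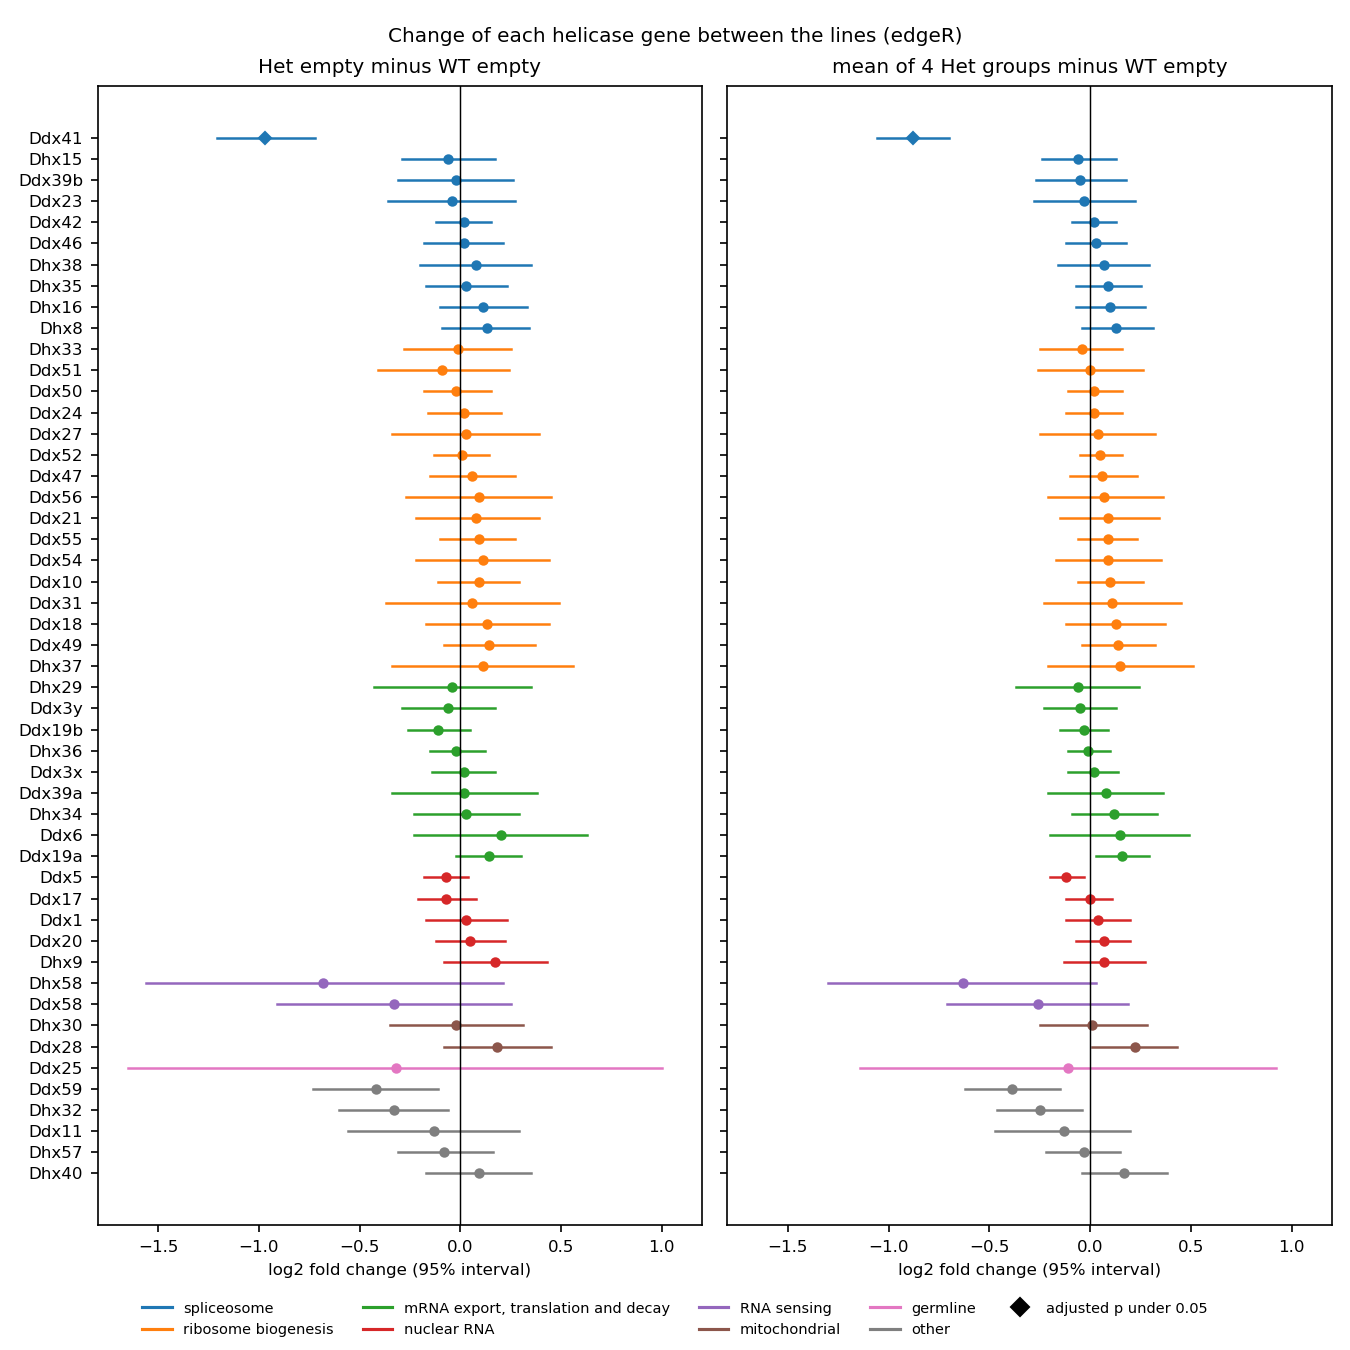
Fitted log2 fold change (x axis) of each of the 50 tested helicase genes with its 95% interval, heterozygous minus wild-type, with empty vector only on the left and as the mean of the 4 heterozygous groups on the right, coloured by role; diamonds mark an adjusted p under 0.05. In this fit by group alone, Ddx41 at -0.97 and -0.88 is the only diamond, and the widest interval is that of Ddx25.

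The helicases of the spliceosome kept close to 0 apart from Ddx41. Of 10 tested, 6 had a positive log2 fold change with empty vector, with a median of 0.02, beside 7243 of 14548 genes and a median of -0.00 over all genes. Such counts of positive values hold for the fitted, TMM-scaled values: there 29 of 50 members were positive with empty vector and 32 of 50 over all 12 heterozygous libraries, but in TPM 0 of 50 and 1 of 50 were. In TPM the median log2 difference of all tested genes was itself -0.21 and -0.20 in these comparisons, and that of the members -0.19 and -0.15. The share of all genes positive in TPM was not counted. Of the spliceosome helicases, Dhx8, which acts in the release of spliced mRNA, was highest with empty vector, at 0.13 (SE 0.10, edgeR adjusted p = 0.815). Its CPM were 97.5, 96.3 and 91.2 in heterozygous cells with empty vector and 83.6, 93.1 and 84.5 in wild-type cells, where 1 wild-type library overlapped. Dhx15 was at -0.06 (SE 0.11, adjusted p = 0.96 in edgeR) and Ddx39b at -0.02 (SE 0.13, adjusted p = 0.984 in edgeR).

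Among the helicases of ribosome biogenesis, 13 of 16 had a positive log2 fold change with empty vector, with a median of 0.07, and none was called. In the comparison of all 12 heterozygous libraries 15 of 16 were positive, with a median of 0.08. The range with empty vector was narrow, from -0.09 for Ddx51 to 0.14 for Ddx49 (SE 0.10, edgeR adjusted p = 0.764). Ddx49 had 99.9, 110 and 113 CPM in heterozygous cells with empty vector and 87.9, 101 and 103 in wild-type cells, and the groups overlapped. Ddx21 had 602, 580 and 575 CPM in heterozygous cells with empty vector and 537, 579 and 544 in wild-type cells, at 0.08 (SE 0.14, edgeR adjusted p = 0.958). Ddx50, the gene closest to Ddx21 in sequence, was at -0.02 (SE 0.08). On the TPM scale the 16 genes summed to 601 ± 51.4 in heterozygous cells with empty vector and 666 ± 46.2 in wild-type cells (SD, n = 3 each). These sums are not relative to the median gene, whose log2 difference in TPM was -0.21 in this comparison.

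The helicases of mRNA export, translation and decay were spread on both sides, 5 of 9 positive with a median of 0.02 in either comparison. Ddx6, which acts with the decapping machinery in decay and in translational repression, had the highest value with empty vector, 0.20 (SE 0.20, edgeR adjusted p = 0.882). Its libraries held 237, 194 and 281 CPM in heterozygous cells and 198, 192 and 230 in wild-type cells, with the third library highest in both. Each heterozygous library lay above the wild-type one of the same number, and with the block the value was 0.19 (SE 0.07, interval 0.03 to 0.34, edgeR adjusted p = 0.163). Ddx3x was at 0.02 (SE 0.07, interval -0.14 to 0.17) and Ddx3y, its partner on the Y chromosome, at -0.06 (SE 0.11, interval -0.29 to 0.17). Both lines carry Ddx3y, at 98.2, 102 and 109 CPM in heterozygous cells with empty vector and 107, 98.9 and 115 in wild-type cells.

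Near-identical copies are the place where counting could move reads between members. Ddx19a and Ddx19b share 93.6% of their aligned coding bases, and 48.7% of the runs of 50 bases in Ddx19a also occur in Ddx19b. Their estimated counts were not whole in any of the 15 libraries, so the 2 genes are uncertain apart. Summed, they held 50.9 ± 4.69 TPM in heterozygous cells with empty vector and 57.7 ± 4.9 TPM in wild-type cells, where the median log2 difference of all tested genes in TPM was -0.21. The pairs Ddx3x and Ddx3y (84.7%), Ddx39a and Ddx39b (81.5%), Ddx21 and Ddx50 (74%) and Ddx5 and Ddx17 (73.5%) share no run of 50 bases. Ddx5 and Ddx39a still had counts that were not whole in all libraries, as did Ddx18 and Dhx32. Counts were exactly whole, to the decimals the files give, in every library for 45 of the 54 members, among them Ddx43 with 0 throughout.

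The nuclear helicases held the tightest member. Ddx5 had 1080, 1074 and 1073 CPM with R525H, 1208, 1191 and 1136 with G173R, 1169, 1162 and 1168 with DDX41, 1165, 1182 and 1236 with empty vector, and 1226, 1260 and 1264 in wild-type cells. The 3 R525H libraries were the lowest of all 15, and 1 heterozygous library reached above the lowest wild-type one. The log2 fold change was -0.07 (SE 0.05, edgeR adjusted p = 0.792) with empty vector and -0.12 (SE 0.04, edgeR adjusted p = 0.103) over all 12. DESeq2 called it over all 12 (-0.12, adjusted p = 0.00186), one of 3 members it called where it called 10.3% of all genes. Ddx17, a related gene of like function, was at -0.07 (SE 0.07) and -0.00 (SE 0.05). Dhx9 was at 0.17 (SE 0.12, edgeR adjusted p = 0.736) with empty vector, with 334, 241 and 318 CPM in heterozygous cells and 261, 245 and 285 in wild-type cells, and overlapped.

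The lowest values after Ddx41 were those of 2 genes of viral RNA sensing, Dhx58 and Ddx58, and of Ddx59 and Dhx32. Dhx58, which encodes LGP2, a regulator of RIG-I-like receptors, had 1.57, 1.7 and 2.26 CPM in heterozygous cells with empty vector and 2.78, 2.74 and 3.32 in wild-type cells. With the other vectors it reached 3.89 CPM, so that the 12 heterozygous libraries overlapped the wild-type ones. Its log2 fold change was -0.68 (SE 0.41, edgeR adjusted p = 0.658) with empty vector and -0.63 (SE 0.31, adjusted p = 0.291) over all 12. Ddx58, which encodes RIG-I itself, had 15.3, 16.8 and 20.1 CPM in heterozygous cells with empty vector and 19.8, 24.3 and 21.6 in wild-type cells, at -0.33 (SE 0.27, edgeR adjusted p = 0.815).

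Ddx59, which is linked to cilia-related developmental disease in people, had 4.49, 4.36 and 4.81 CPM with R525H, 4.86, 4.74 and 4.85 with G173R, 5.75, 5.11 and 5.41 with DDX41, 4.06, 5.39 and 4.84 with empty vector, and 5.29, 6.95 and 6.88 in wild-type cells. Of the 3 wild-type libraries, the first lay inside the heterozygous range and the others above it. Over all 12 heterozygous libraries the log2 fold change was -0.39 (SE 0.11, interval -0.62 to -0.15, edgeR adjusted p = 0.0505), just short of a call. Without the first wild-type library it was -0.50 (edgeR adjusted p = 0.0235), and without the second heterozygous library with empty vector -0.41 (edgeR adjusted p = 0.0416). By DESeq2 it was -0.38 (adjusted p = 0.0157). Of 20 alternatives, 4 called it, these and the replicate block, and 16 left it uncalled. With empty vector only it was -0.42 (SE 0.14, edgeR adjusted p = 0.182). Dhx32 had 13.4, 15.4 and 16 CPM in heterozygous cells with empty vector and 17, 19.9 and 19.4 in wild-type cells, without overlap. Its log2 fold change was -0.33 (SE 0.13, edgeR adjusted p = 0.257) there and -0.25 (SE 0.10, edgeR adjusted p = 0.171) over all 12 heterozygous libraries, of which the third G173R library at 19.1 CPM and the third DDX41 library at 18.8 lay inside the wild-type range.

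**Figure D3:**
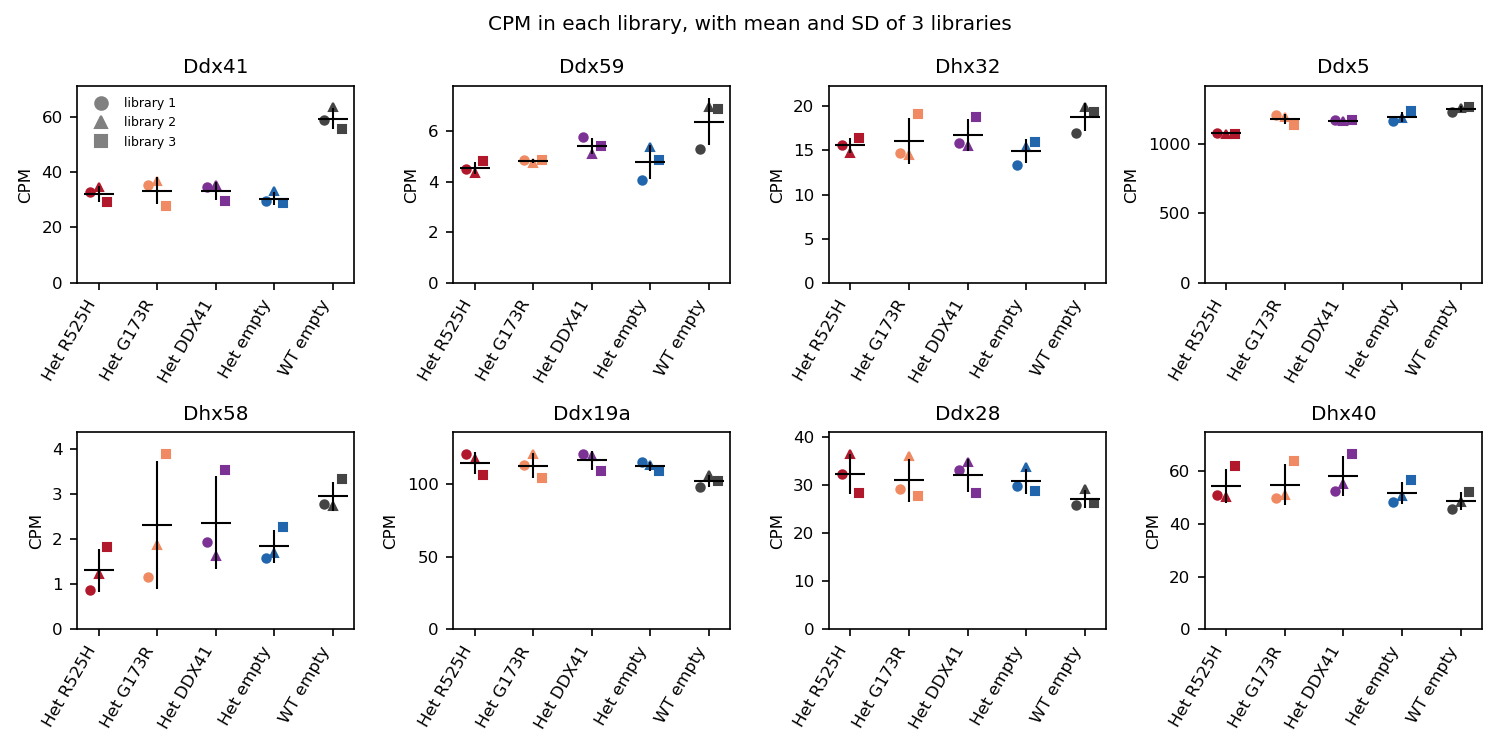
CPM (y axis, from 0) of 8 helicase genes in each library, by group, with horizontal bars for the mean and vertical bars for the SD of 3 libraries; circles, triangles and squares are libraries 1, 2 and 3. Ddx41 separates the lines in every library, while the other 7 genes overlap between the 12 heterozygous libraries and the wild-type ones.

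Counted by separation alone, few members stood apart. With empty vector, the heterozygous libraries all lay above the wild-type ones for 1 member, Ddx19a, where 8.33% of all genes did so, and all below for 4, Ddx41, Dhx58, Dhx32 and Ddx19b, where 8.82% did. Among all 12 heterozygous libraries no member lay wholly above (3.44% of all genes) and Ddx41 alone lay wholly below (3.92% of all genes).

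The spread of the members within groups was not set beside that of all genes. The median within-group coefficient of variation over the 50 genes was 8.98%, from 1.73% for Ddx5 to 57.6% for Ddx25, and it was under 10% for 29. Ddx25, Ddx58 and Dhx58 exceeded 20%. A part of that spread followed the number in the title. The third library was the lowest of its group in all 5 groups for 14 members, Ddx41, Ddx39a and Dhx15 among them. It was the highest in all 5 for 5 members, Ddx25, Ddx3y, Ddx6, Dhx40 and Dhx58. How often either order occurred over all genes was not counted. With libraries 1 and 2 only, edgeR called 8 of 50 members over the heterozygous groups, where it called 14.5% of all genes. The 4 higher were Ddx18, Ddx19a (0.21, adjusted p = 0.0168), Ddx21 (0.17, adjusted p = 0.0303) and Dhx8, where 6.95% of all genes were higher. The 4 lower were Ddx41, Ddx58, Dhx32 (-0.30, adjusted p = 0.0312) and Dhx58 (-0.91, adjusted p = 0.0204), where 7.52% were lower. Ddx18, Dhx8, Ddx58 and Dhx32 are named here after their values were seen.

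By edgeR no helicase was called between vectors, while DESeq2 called Ddx5 for R525H against empty vector. Of 50 members, 0 were called in any of the 6 comparisons among the heterozygous groups, by edgeR. Of all genes, 0% were called with DDX41 against empty vector and 0% with G173R against empty vector. At an unadjusted p under 0.05, 0 members passed in either, where 1.75% and 0.605% of all genes did. With R525H against empty vector 0.0137% of all genes were called, and at an unadjusted p under 0.05 4 members passed, Ddx19b, Ddx5, Ddx52 and Ddx17, against 4.98% of all genes. For R525H against G173R 0.0825% of all genes were called (0.0275% higher, 0.055% lower) and 5 members passed unadjusted, against 6.39% of all genes. R525H against DDX41 gave 0% called and 3 members unadjusted, against 3.99% of all genes, and G173R against DDX41 0% called and 0 members unadjusted, against 1.54%. These comparisons share libraries.

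For Ddx41 itself no difference between a DDX41 vector and the empty vector was detectable. The log2 difference from empty vector was 0.08 (SE 0.11, interval -0.16 to 0.33) with R525H, 0.13 (SE 0.11, interval -0.11 to 0.38) with G173R and 0.13 (SE 0.11, interval -0.12 to 0.37) with DDX41. The groups stood at 54.1%, 56.2%, 55.8% and 51.2% of the wild-type CPM for R525H, G173R, DDX41 and empty vector.

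R525H was the group in which members most often stood apart from the empty vector. Its 3 libraries lay above all 3 with empty vector for 11 members, where 6.39% of all genes did, and below for Ddx5 alone, where 5.22% did. The 11 were Ddx3x, Ddx39a, Ddx21, Ddx52, Dhx36, Ddx20, Ddx55, Ddx51, Ddx19b, Ddx10 and Ddx17. With DDX41, 0 members lay wholly above (3.92% of all genes) or below (3.33%) the empty vector, and with G173R 0 lay wholly above (1.65%) or below (1.27%). To lie wholly above, every library of a group must be higher. The third libraries with DDX41 and G173R held the lowest shares of counts in members, 0.714% and 0.699%. The part of these libraries in the counts of 0 was not tested. Against G173R, the R525H libraries lay wholly above for 8 members (5.84% of all genes) and below for Ddx5 (5.28%). Against DDX41, they lay wholly above for 5 members (5.16% of all genes), Ddx3x, Ddx21, Ddx52, Ddx55 and Ddx19b, and below for 3 (5.51%), Ddx5, Ddx59 and Dhx57. In the fit 38 of 50 members had a positive log2 fold change for R525H against empty vector with a median of 0.07, beside 7026 of 14548 genes and a median of -0.01.

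Ddx19b, the other export helicase of its pair, showed the smallest p among members for R525H against empty vector. It had 64.3, 67 and 74.4 CPM with R525H, 54.2, 57.9 and 60.2 with G173R, 55.2, 61.2 and 58.2 with DDX41, 56.5, 57.7 and 56.9 with empty vector, and 62.2, 57.8 and 64.2 in wild-type cells. The R525H libraries were above every other library, the lowest of them only just above the highest wild-type one. Its log2 difference was 0.26 against empty vector (SE 0.07, edgeR adjusted p = 0.527), 0.24 against DDX41 (adjusted p = 0.864) and 0.26 against G173R (adjusted p = 0.37). Ddx5 stood at -0.15 (SE 0.05, edgeR adjusted p = 0.7), -0.12 (adjusted p = 1) and -0.13 (adjusted p = 0.674) in the same comparisons. DESeq2 called Ddx5 against empty vector (-0.15, adjusted p = 0.0199), the 1 member it called there, where it called 0.406% of all genes.

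Ratios in TPM within the 5 pairs of related genes were also set side by side for R525H and empty vector. The ratio of Ddx39a to Ddx39b was 1.81 ± 0.072 with R525H and 1.38 ± 0.0372 with empty vector, and that of Ddx5 to Ddx17 was 4.53 ± 0.108 with R525H and 5.65 ± 0.72 with empty vector (SD, n = 3 each). For Ddx3x to Ddx3y it was 8.79 ± 0.611 with R525H and 8.22 ± 0.148 with empty vector, and for Ddx21 to Ddx50 it was 3.5 ± 0.532 with R525H and 3.22 ± 0.259 with empty vector. The ratio of Ddx19a to Ddx19b was 4.74 ± 0.655 with R525H and 5.48 ± 0.0984 with empty vector. These ratios were not tested. Ddx39a had a mean of 379 ± 39.8 CPM with R525H and 315 ± 21.3 with empty vector, a log2 difference of 0.27 that was not called (edgeR adjusted p = 1). In ribosome biogenesis 15 of 16 members were positive with R525H against empty vector, with a median of 0.08. The highest was Ddx31 at 0.30, which had 41.4, 39 and 32.8 CPM with R525H and 33.9, 30.6 and 27.4 with empty vector, with overlap.

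**Figure D4:**
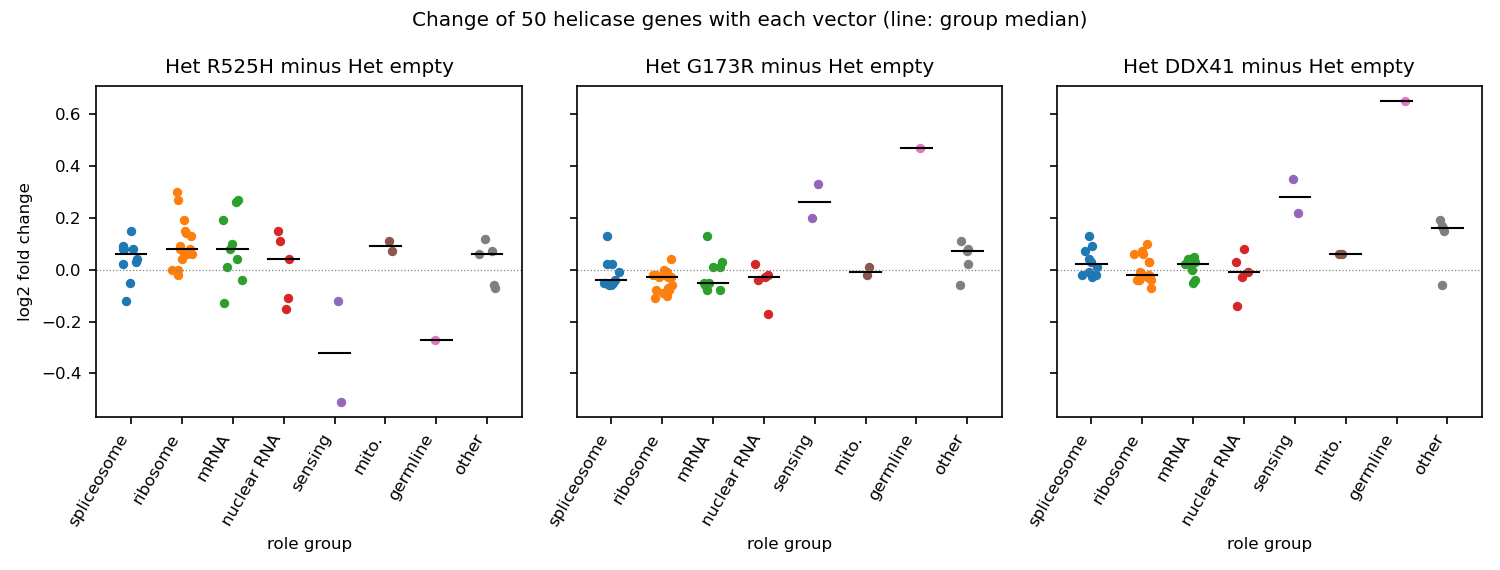
Fitted log2 fold change (y axis) of the 50 tested helicase genes against empty vector in the heterozygous line, 1 panel per vector and 1 column per role, with horizontal lines at the median of each role; edgeR, CPM scale. None was called by edgeR in any of the 3 comparisons, and 38 of 50 lie above 0 with R525H.

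RNA helicases with other names and G-patch proteins, the family that holds activators of DEAH helicases, were set beside the members from fixed lists. Of 17 tested helicases among 20, 0 were higher and 1 lower in heterozygous cells with empty vector, where 3.66% of all genes were called. The 1 was Dqx1 (-0.94, SE 0.23, edgeR adjusted p = 0.0359), with 1.32 CPM in heterozygous and 2.54 CPM in wild-type cells. Over all 12 heterozygous libraries, where 7.67% of all genes were called, 0 were higher and 2 lower, Dqx1 (-0.82, adjusted p = 0.00771) and the translation factor Eif4a2 (-0.27, adjusted p = 0.0372), again by edgeR. Of 23 G-patch proteins, 0 were called with empty vector, and over all 12 libraries 0 were higher and 1 lower, the splicing factor Rbm17 (-0.18, edgeR adjusted p = 0.0426). With the replicate block, Eif4a2 was also called with empty vector (-0.34, adjusted p = 0.0216), as was Rbm17 (-0.21, adjusted p = 0.0428), and over all 12 libraries so were the G-patch proteins Cmtr1 (-0.23, adjusted p = 0.00432) and Sugp2 (-0.24, adjusted p = 0.00912), all lower and all by edgeR. The block called 9.29% of all genes with empty vector and 17.5% over all 12, and the counts of both lists are near or below those shares.

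In the comparisons of vectors no gene of either list was called in the fit by group alone, and 1 came near. Mov10, an RNA helicase known to act against retroelements and retroviruses, had 22.7 to 27 CPM with R525H, against 35 to 38.4 with G173R, 32.5 to 40.2 with DDX41 and 34.2 to 39 with empty vector, and 32.5 to 35.3 in wild-type cells. Its R525H libraries lay below all others. The log2 difference of R525H was -0.51 (SE 0.10, edgeR adjusted p = 0.0874) from empty vector, -0.52 (SE 0.10, adjusted p = 0.155) from DDX41 and -0.55 (SE 0.10, adjusted p = 0.0653) from G173R. The replicate block called it lower in all 3, with adjusted p of 0.00511, 0.0063 and 0.00264 in edgeR. For R525H against empty vector the same-numbered libraries correlated at 0.0676 to 0.38, under the minimum of 0.1 for a pairing in 1 of 3, so the block's call there rests on numbers not shown to pair; for R525H against DDX41 and against G173R every correlation was above it.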

How the data were processed

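The authors deposited 1 gene table per sample with RSEM expected counts and TPM, per the submitters' processing notes and the file headers; no source used here gives aligner, genome build or versions. Libraries were stranded total RNA, depleted of ribosomal RNA, per the labels' protocols. Expected counts were rounded and tested with edgeR 4.0.16 (R 4.3.3; filterByExpr, TMM, quasi-likelihood, 1 fit of 15 libraries by group), with Benjamini-Hochberg adjustment over 14548 genes and a threshold of 0.05; CPM uses TMM-scaled totals. The fit was tested on simulated data with the same spread for all genes and no effect of the replicate number. That test cannot show how the fit handles spread that differs between genes or same-numbered libraries that deviate together, as here. Totals were 22104066 to 49145873 counts per library.

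Members, role groups and lists were assigned by hand and chosen with earlier results of these data known. Genes named by rule are Ddx41, called members, the 8 highest, the lowest p per role, near copies and members that failed the filter. Other members are named for their values, such as an extreme in a role, a level near Ddx41 or libraries that did not overlap. Libraries with the same number deviated together, with correlations of 0.358 to 0.49 with empty vector and 0.237 to 0.503 over all heterozygous groups, so the numbers were taken to pair the lines. Alternatives were RLE scaling, no filter, the replicate block, DESeq2 1.42.0, fewer groups in the fit, libraries 1 and 2 only, and leaving out each library.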

Additional observations from a re-analysis of the deposited data

How the results depend on the processing

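Ddx41 was called lower under every alternative run for both line comparisons. The count of members called over all 12 heterozygous libraries was 8 with the replicate block, 8 with libraries 1 and 2 only, 3 by DESeq2 and 1 to 2 when 1 library was left out. The added calls came from Ddx59 without the first wild-type or the second heterozygous empty-vector library, and from Dhx32 without the third G173R library. With empty vector the replicate block gave 2, and DESeq2 gave 1 for R525H against empty vector. The block changed no other count of members. Of single-gene values, 731 kept direction and side of the threshold, 18 passed it and 19 changed sign, none of them called.

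Leaving out 1 library at a time gave both signs for some genes. With empty vector the ranges were -0.51 to 0.05 for Ddx25, -0.03 to 0.10 for Ddx39a, -0.05 to 0.01 for Ddx39b, -0.02 to 0.05 for Ddx3x, -0.11 to 0.00 for Ddx3y and -0.05 to 0.01 for Ddx50. Over all 12 heterozygous libraries they were -0.03 to 0.03 for Ddx17, -0.35 to 0.26 for Ddx25, -0.02 to 0.04 for Ddx3x, -0.11 to 0.00 for Ddx3y and -0.01 to 0.04 for Ddx50. With libraries 1 and 2 only, Ddx39b was at 0.02 with empty vector, and Ddx17 at 0.01, Ddx39b at 0.05 and Ddx50 at -0.04 over all heterozygous groups. The cause was not tested. A fit of only the groups compared was not run for all 12, which use every group.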
